A study of Mus musculus with 6 samples.

Results

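Autophagy and lysosome genes were examined in mouse liver with and without an active form of the transcription factor IRF3. The set holds 42 genes chosen by their known function, all of which were found by symbol (GENCODE M21) among the 20894 genes of the deposited table, and 39 of them had enough counts to be tested, of 10802 genes tested in all. Polyadenylated RNA of whole liver was sequenced in 6 samples. All mice carried the Irf3LSL-2D allele, which yields the 2D form of IRF3 where Cre recombinase has removed a stop sequence. The 3 samples of the IRF3-2D group came from mice given AAV8-TBG-Cre, a viral vector that expresses Cre from a hepatocyte promoter, and the 3 Ctrl samples from mice given AAV8-TBG-GFP. Every mouse of both groups also received ethanol at 3 g/kg by intraperitoneal injection, and liver was taken 2 h later, so no sample shows either state without ethanol. The groups differ in Cre and GFP as well as in IRF3, and the effects of these cannot be told apart. The sources used here do not give age or sex. Whether each replicate is its own mouse is not stated either, and the p-values then reflect only the spread among these samples, which may be technical.

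Autophagy delivers cytoplasm, organelles and protein aggregates to the lysosome in a double-membraned vesicle, the autophagosome. The ULK1 kinase complex and a lipid kinase complex containing Beclin 1 start the process, ubiquitin-like conjugation systems attach proteins of the ATG8 family (LC3 and GABARAP) to the growing membrane, and receptors such as p62 link cargo to ATG8. The vesicle then fuses with a lysosome, where a proton pump (the V-ATPase) keeps the lumen acidic and cathepsins, glycosidases and lipases break the content down. In liver this supplies amino acids and fatty acids during fasting, clears lipid droplets and damaged mitochondria, and is known to respond to ethanol. TFEB and TFE3 are transcription factors that switch on many of these genes together.

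Library totals were 12054096 to 14830629 counts, and no pair of replicates agreed within sampling noise (chi-square per degree of freedom between 18.9 and 110). Levels are in CPM, a gene's counts relative to its library's total, with that total adjusted by TMM scaling for differences in library composition. Where an error follows ±, it is the SD over the 3 samples of a group. Hepatocyte markers were abundant in every sample, with 9 markers summing to 140784 to 188760 CPM in Ctrl and 72837 to 85689 CPM in IRF3-2D. Of the 9, 8 were called lower and 1 higher, against 13.1% and 13.2% of all tested genes. Irf3 itself checked the labels: it stood at 42.6, 46.4 and 60.3 CPM in Ctrl and at 117, 106 and 137 CPM in IRF3-2D, without overlap (log2 fold change 1.27, SE 0.16, edgeR adjusted p = 0.00152). A few genes expressed in nearly all cell types had almost no counts, and the table may hold only some of their transcripts. Among the 42 genes this applies to Sqstm1, which encodes the cargo receptor p62, with 0, 2 and 9 counts in Ctrl and 0, 0 and 10 in IRF3-2D. It also applies to the ATG8 gene Gabarap, with 5, 0 and 0 counts in Ctrl and 0, 0 and 4 in IRF3-2D. These genes and Mitf, a relative of TFEB with at most 6 counts in a library, were not tested, and 3 counts correspond to 0.194 to 0.252 CPM.

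In IRF3-2D liver, 3 of 8 genes at the start of autophagy and 3 of 4 tested ATG8 genes were lower, while 2 of 7 cathepsin genes were higher. Of the 39 tested genes, 13 were called by edgeR's quasi-likelihood test at a Benjamini-Hochberg adjusted p under 0.05, or 33.3%, against 26.3% of all tested genes. Of these, 3 were higher (7.69%, against 13.2% of all genes) and 10 lower (25.6%, against 13.1%). The samples of both groups did not overlap for 16 of the 39 (41%, against 44.9% of all genes), 4 with IRF3-2D above (10.3%, against 23.7%) and 12 with IRF3-2D below (30.8%, against 21.2%). The median log2 fold change of the 39 was -0.20, and that of all tested genes was 0.03. With library totals in place of TMM, 15 of the 39 were called higher and 3 lower, beside 4500 higher and 571 lower among all genes, and the median of all genes moved to 0.49. The median of the 39 genes was then 0.26.

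**Figure D1:**
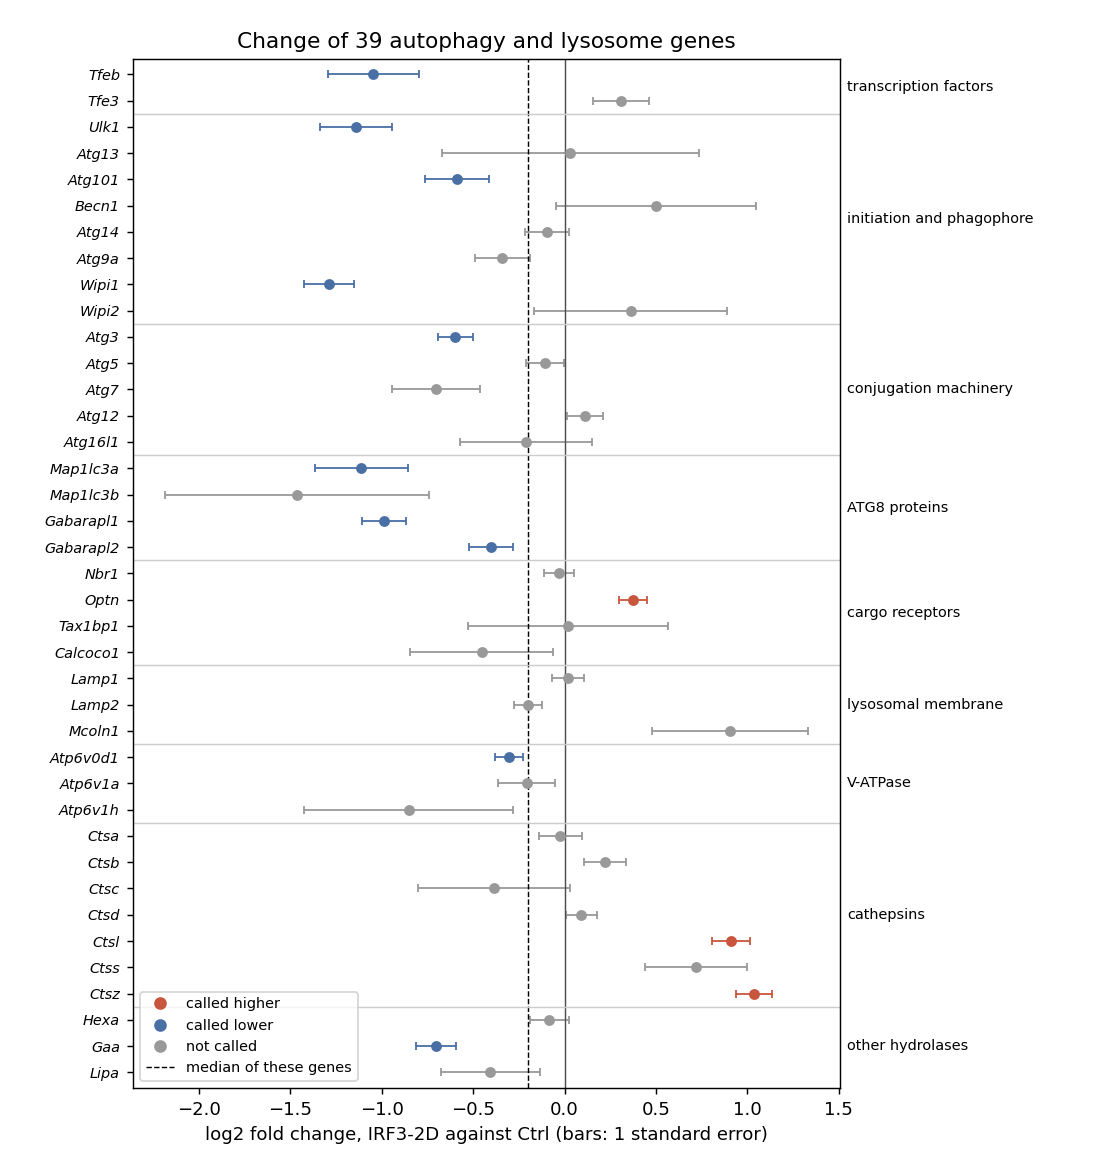
Log2 fold change of each of the 39 tested autophagy and lysosome genes in IRF3-2D against Ctrl liver, grouped by role, with bars of 1 standard error and n = 3 samples a group. The 10 genes called lower lie mainly in the upper part, among initiation and ATG8 genes, and of the 3 called higher, Ctsl and Ctsz are cathepsins.

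Of the 13 calls, those of Ulk1, Wipi1, Gabarapl1, Ctsl and Ctsz held in all 14 alternative analyses, and those of Atg3 and Gaa were lost only with library totals. The other 6, of Tfeb, Atg101, Map1lc3a, Gabarapl2, Optn and Atp6v0d1, were lost when at least 1 single sample was left out. Those of Tfeb, Atg101, Gabarapl2 and Atp6v0d1 were also lost with the replicate number as a block. Without a filter on low counts those of Atg101, Gabarapl2 and Atp6v0d1 were lost, and limma-voom did not call Gabarapl2. The number called lower fell from 10 to 5 without Ctrl replicate 3, to 6 without IRF3-2D replicate 1 and to 6 without IRF3-2D replicate 2.

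Tfeb (chromosome 17, 47737030 to 47792419, plus strand on GRCm38) encodes the main transcription factor of lysosome and autophagy genes. It was measured at 6.86, 6.22 and 8.75 CPM in Ctrl and at 3.49, 4.06 and 3.01 CPM in IRF3-2D liver. All IRF3-2D samples were below all Ctrl samples, a 2.06-fold lower level (means 7.28 ± 1.32 and 3.52 ± 0.526 CPM, SD, n = 3; log2 fold change -1.05, SE 0.25, adjusted p = 0.0215). Leaving out Ctrl replicate 3 (log2 fold change -0.89), IRF3-2D replicate 1 (-1.05) or IRF3-2D replicate 3 (-0.96) ended the call, as did library totals (-0.59). Tfe3, its close relative, stood at 22.6 to 28.2 CPM in Ctrl and 25.3 to 34.9 CPM in IRF3-2D, with overlapping samples (log2 fold change 0.31, adjusted p = 0.189), and was called higher only with library totals. Whole-liver RNA does not separate a lower level per cell from fewer cells that express a gene, here and in what follows.

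TFEB and TFE3 bind the CLEAR element, whose palindromic core is TCACGTGA, and the core of the interferon-stimulated response element, bound by IRF proteins, was taken as GAAA, any 2 bases and GAAA again. Both were searched on both strands in RefSeq promoter windows (GRCm38.p6) from 250 bases before to 50 after a gene's start, which were found for 36 of the 42 genes. The CLEAR core stood in 6 of the 36 (16.7%), against 1.12% of 27025 genes with a window. These 6 are shown because they carry the shared element, and they include genes with and without a call: Atg3 and Atp6v0d1 were called lower, and Ctsa, Ctsd, Mcoln1 and Atp6v1a were not called. The CLEAR core is in capitals, 5′ to 3′ along the gene, in windows of 30 bases.
Ctsa, plus strand, chr2:164833749-164833778: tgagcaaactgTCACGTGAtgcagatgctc
Ctsd, minus strand, chr7:142387908-142387937: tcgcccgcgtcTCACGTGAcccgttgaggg
Mcoln1, plus strand, chr8:3500462-3500491: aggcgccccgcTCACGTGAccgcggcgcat
Atp6v0d1, minus strand, chr8:105566050-105566079: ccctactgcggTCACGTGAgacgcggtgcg
Atp6v1a, minus strand, chr16:44139373-44139402: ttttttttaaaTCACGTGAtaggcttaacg
Atg3, plus strand, chr16:45158746-45158775: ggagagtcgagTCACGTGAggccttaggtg

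Ctsa held another CLEAR core 5 bases after its start. The shorter E-box CACGTG, which is contained in the CLEAR core, stood in 12 of the 36 genes (33.3%, against 8.09% of all genes), of which 1 was called higher, 3 lower and 8 not. The gene called higher was Ctsl, with the E-box in capitals 236 bases before its start.
Ctsl, minus strand, chr13:64370739-64370768: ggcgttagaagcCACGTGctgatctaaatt

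The response element core stood in 3 of the 36 genes (8.33%, against 3.99%), none of which was called by edgeR with TMM scaling. They are shown because an active IRF protein distinguishes the groups, with the match in capitals; in Lamp1 it lies on the opposite strand.
Ctss, plus strand, chr3:95526755-95526784: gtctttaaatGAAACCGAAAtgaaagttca
Nbr1, plus strand, chr11:101552635-101552664: atcggcttggGAAAGGGAAAtccaaccagc
Lamp1, plus strand, chr8:13159016-13159045: cacaacctacTTTCCATTTCgggacactcg
These windows were not matched for base composition, and a match of letters is not a bound site.

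At the start of the pathway, 3 of 8 tested genes were called lower and none higher. Wipi1 (chromosome 11, 109573331 to 109611967, minus strand) encodes a protein that binds the phosphoinositide made at the early autophagosome membrane. It was measured at 26.6, 33.8 and 34.9 CPM in Ctrl and at 14.1, 12.1 and 12.7 CPM in IRF3-2D. The groups were far apart, with a level 2.44-fold lower in IRF3-2D (means 31.7 ± 4.53 and 13.0 ± 1.014 CPM, SD, n = 3; log2 fold change -1.29, SE 0.14, adjusted p = 0.000895). Ulk1 (chromosome 5, 110784488 to 110810097, minus strand), the kinase that starts autophagy, stood at 17.2, 26.8 and 25.2 CPM in Ctrl and at 9.64, 9.89 and 11.9 CPM in IRF3-2D. Its highest IRF3-2D sample was below its lowest Ctrl sample, and the level was 2.20-fold lower (means 23.1 ± 5.19 and 10.5 ± 1.22 CPM, SD, n = 3; log2 fold change -1.14, SE 0.20, adjusted p = 0.00622).

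Atg101 (chromosome 15, 101284272 to 101290945, plus strand), a subunit of the ULK1 complex, stood at 29.4, 30.3 and 26.2 CPM in Ctrl and at 16.6, 16.2 and 24.3 CPM in IRF3-2D. It was 1.504-fold lower (means 28.6 ± 2.16 and 19.0 ± 4.53 CPM, SD, n = 3; log2 fold change -0.59, SE 0.17, adjusted p = 0.0448), with IRF3-2D replicate 3 close to the Ctrl samples. This call was lost without any 1 sample other than IRF3-2D replicate 3 (log2 fold change -0.65 to -0.48) and with library totals (-0.14). The other 5 were not called. Becn1, which encodes Beclin 1, stood at 16.7 to 29.1 CPM in Ctrl and at 20.6, 12.5 and 59.8 CPM in IRF3-2D, where replicate 3 alone was high (log2 fold change 0.50, adjusted p = 0.546, and -0.42 without that sample). Atg14, which directs the Beclin 1 complex to autophagy, had mean levels of 31.7 ± 2.93 in Ctrl and 29.7 ± 3.32 CPM in IRF3-2D (± SD, n = 3), and Atg9a, a lipid scramblase of the vesicles that seed the membrane, 59.6 ± 6.42 and 47.0 ± 8.64 (± SD, n = 3). Atg9a shares 31.95% of its 31-base words with other genes, which makes its counts uncertain. Atg13, a further subunit of the ULK1 complex, and Wipi2, which recruits the conjugation machinery, were at 0.970 to 8.47 CPM in all samples, with wide overlap.

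The conjugation machinery attaches ATG8 proteins to lipid. Atg3 (chromosome 16, 45158785 to 45188538, plus strand), the enzyme that carries out the last transfer, was the only one of 5 genes called, at 103, 109 and 123 CPM in Ctrl and 72.6, 70.3 and 78.9 CPM in IRF3-2D. The groups did not overlap, and the level was 1.51-fold lower (means 112 ± 10.3 and 73.9 ± 4.48 CPM, SD, n = 3; log2 fold change -0.60, SE 0.10, adjusted p = 0.00459), although with library totals the log2 fold change was -0.15 and not called. Atg7, the enzyme that activates both ATG8 and ATG12, also had all IRF3-2D samples (6.40 to 9.57 CPM) below all Ctrl samples (10.1 to 15.3 CPM) without passing the test (log2 fold change -0.71, adjusted p = 0.0712). It passed without IRF3-2D replicate 3 (log2 fold change -0.92, adjusted p = 0.041). Atg5 and Atg12, whose products are joined to each other, stood at 66.9 ± 8.14 and 44.1 ± 5.13 CPM in Ctrl and at 62.1 ± 1.14 and 47.7 ± 0.476 CPM in IRF3-2D (± SD, n = 3). Atg16l1, their partner on the membrane, ranged from 8.01 to 23.0 CPM in Ctrl and from 11.1 to 16.3 CPM in IRF3-2D.

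Of the ATG8 genes, 3 of 4 tested were called lower, and all 4 had negative log2 fold changes (median -1.05), of which that of Gabarapl2 turned to 0.056 with library totals. Gabarapl1 (chromosome 6, 129533160 to 129542346, plus strand), a GABARAP-type protein, stood at 437, 515 and 536 CPM in Ctrl and at 245, 227 and 279 CPM in IRF3-2D. Every IRF3-2D sample was far below every Ctrl sample, a 1.98-fold lower level (means 496 ± 52.0 and 250.4 ± 26.2 CPM, SD, n = 3; log2 fold change -0.99, SE 0.12, adjusted p = 0.00139). Per kilobase of its longest annotated transcript Gabarapl1 was also the most abundant of the 4 in Ctrl, at 273 CPM per kilobase, against 49.2 for Gabarapl2, 21.5 for Map1lc3a and 3.91 for Map1lc3b. In IRF3-2D these levels were 138, 37.2, 9.92 and 1.41 CPM per kilobase, in the same order. A gene whose counts cover only part of its transcripts would stand too low in this order.

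Map1lc3a (chromosome 2, 155276297 to 155278073, plus strand), which encodes an LC3 protein, had 22.3, 23.8 and 25.6 CPM in Ctrl and 15.3, 10.4 and 7.34 CPM in IRF3-2D. The groups did not overlap, though the IRF3-2D samples were spread, and the level was 2.16-fold lower (means 23.9 ± 1.63 and 11.03 ± 4.03 CPM, SD, n = 3; log2 fold change -1.11, SE 0.25, adjusted p = 0.0183). That call was lost without Ctrl replicate 3 (-1.06), without IRF3-2D replicate 2 (-1.07) and with library totals (-0.66). Gabarapl2 (chromosome 8, 111940703 to 111953612, plus strand) stood at 68.4, 93.3 and 86.1 CPM in Ctrl and at 62.9, 63.3 and 61.2 CPM in IRF3-2D. The IRF3-2D samples were tight and lay just below the lowest Ctrl sample (means 82.6 ± 12.8 and 62.4 ± 1.13 CPM, SD, n = 3; log2 fold change -0.40, SE 0.12, adjusted p = 0.0453). This call was lost without any 1 sample other than Ctrl replicate 1 (log2 fold change -0.41 to -0.31), and the gene shares 15.2% of its words with other genes. Map1lc3b, the LC3 gene most used as a marker, ranged from 7.49 to 32.6 CPM in Ctrl and from 2.03 to 9.70 in IRF3-2D, with overlap (log2 fold change -1.46, SE 0.72, adjusted p = 0.183).

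**Figure D2:**
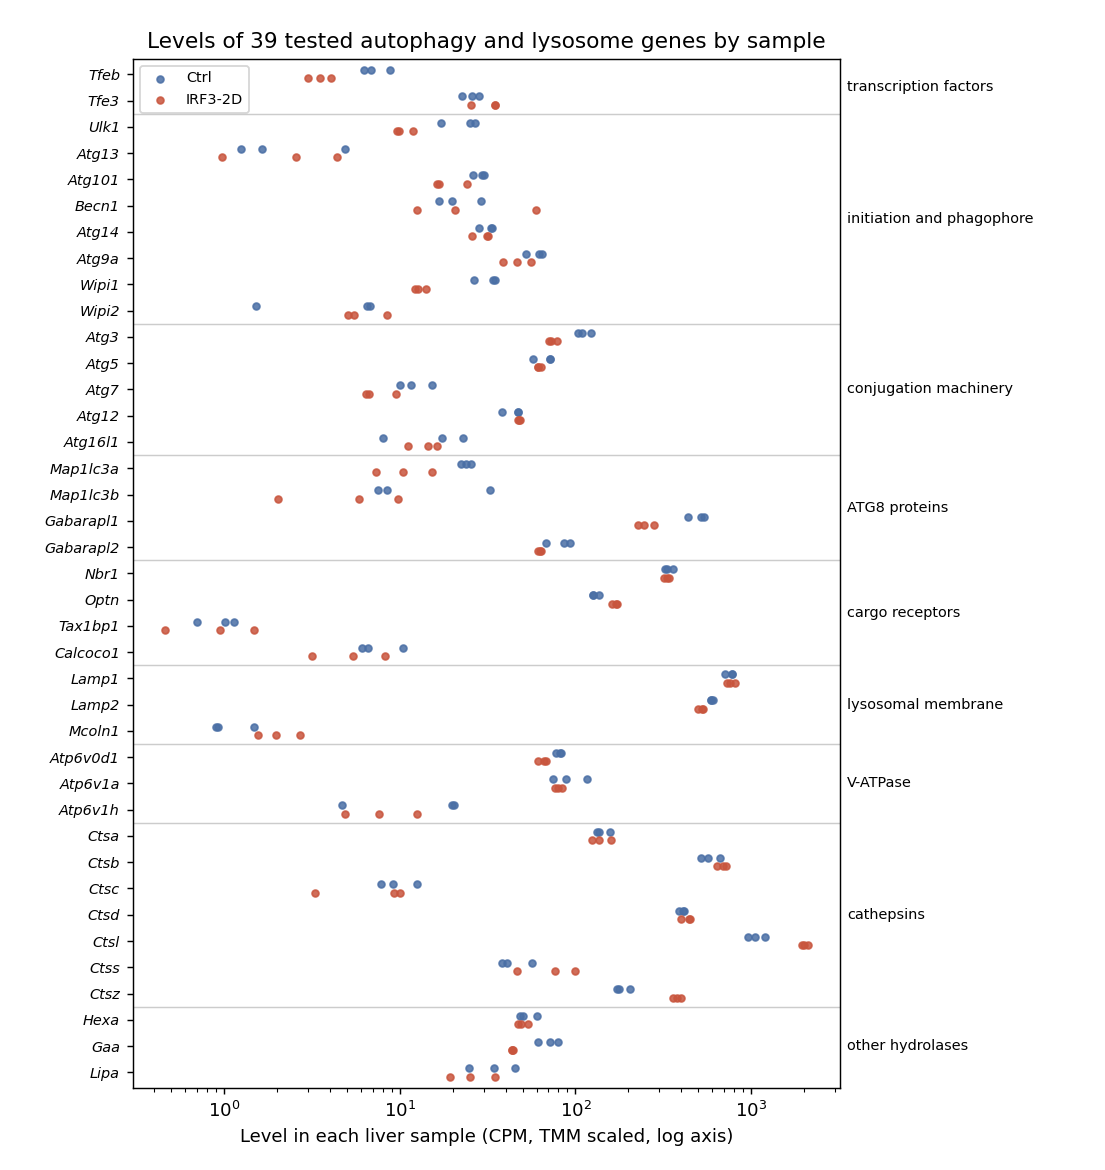
Level of each of the 39 tested genes in each liver sample, in CPM with TMM scaling on a log axis, with Ctrl in blue and IRF3-2D in red (3 points each). Gabarapl1, Wipi1 and Ulk1 show separate groups with IRF3-2D to the left, Ctsl and Ctsz separate groups with IRF3-2D to the right, and Lamp1 and Nbr1 overlapping groups.

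Cargo receptors showed a single call among 4 tested genes. Optn (chromosome 2, 5020642 to 5064051, minus strand) encodes optineurin, a receptor for ubiquitin-coated mitochondria and bacteria that is a substrate of the kinase TBK1. It stood at 126, 126 and 136 CPM in Ctrl and at 172, 162 and 169 CPM in IRF3-2D, 1.30-fold higher without overlap (means 129 ± 5.83 and 168 ± 4.96 CPM, SD, n = 3; log2 fold change 0.38, SE 0.08, adjusted p = 0.0127). Without IRF3-2D replicate 1 its log2 fold change was 0.35 and not called. Nbr1, a receptor related to p62, had mean levels of 337 ± 17.9 in Ctrl and 330.04 ± 12.3 CPM in IRF3-2D (± SD, n = 3; log2 fold change -0.03, SE 0.08). Calcoco1, a receptor for the endoplasmic reticulum and Golgi, ranged from 6.06 to 10.5 CPM in Ctrl and from 3.17 to 8.26 in IRF3-2D, with overlap. Tax1bp1, a ubiquitin-binding receptor, was listed at 0.459 to 1.49 CPM, near the limit of detection.

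Of 3 genes of the lysosomal membrane none was called with TMM scaling. Lamp1 (chromosome 8, 13159161 to 13175338, plus strand), which encodes a glycoprotein that coats the inner face of the membrane, stood at 779, 779 and 708 CPM in Ctrl and at 810, 759 and 729 CPM in IRF3-2D. The samples overlapped (log2 fold change 0.02, SE 0.09, adjusted p = 0.886), and with library totals the gene was called higher (log2 fold change 0.48). Lamp2, needed for fusion and chaperone-mediated autophagy, was at 587 to 606 CPM in Ctrl and 496 to 533 CPM in IRF3-2D, without overlap (log2 fold change -0.20, SE 0.08, adjusted p = 0.099). DESeq2 called it lower (log2 fold change -0.22, adjusted p = 0.00413). Mcoln1, the calcium channel that signals to TFEB, was listed at 0.899 to 1.48 CPM in Ctrl and 1.55 to 2.71 in IRF3-2D (log2 fold change 0.90, SE 0.42, adjusted p = 0.164), and was called higher with library totals (1.36).

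Of 3 V-ATPase genes in the set, Atp6v0d1 (chromosome 8, 105524465 to 105566047, minus strand), a subunit of the membrane sector, was called lower. It had 82.7, 81.3 and 77.5 CPM in Ctrl and 67.9, 61.4 and 66.3 CPM in IRF3-2D, without overlap (means 80.5 ± 2.71 and 65.2 ± 3.36 CPM, SD, n = 3; log2 fold change -0.30, SE 0.08, adjusted p = 0.0251). The call was lost without any 1 of the 6 samples (log2 fold change -0.34 to -0.26), and with library totals the log2 fold change was 0.15. Atp6v1a, the catalytic subunit, stood at a mean of 92.7 ± 20.9 in Ctrl and 80.3 ± 3.58 CPM in IRF3-2D (± SD, n = 3). Atp6v1h, a regulatory subunit, stood at 4.66, 19.9 and 20.5 CPM in Ctrl and at 7.57, 12.5 and 4.85 CPM in IRF3-2D, and its groups overlapped.

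Of 7 cathepsin genes, 2 were called higher and none lower. Ctsl (chromosome 13, 64359337 to 64370890, minus strand) encodes cathepsin L, a cysteine protease of the lysosome. It stood at 1199, 965 and 1047 CPM in Ctrl and at 1947, 2098 and 1989 CPM in IRF3-2D. The groups were widely separated, with a level 1.88-fold higher in IRF3-2D (means 1070.4 ± 119 and 2011 ± 78.1 CPM, SD, n = 3; log2 fold change 0.91, SE 0.10, adjusted p = 0.00108). Ctsz (chromosome 2, 174427493 to 174439039, minus strand), a carboxypeptidase with 1 annotated transcript, stood at 205, 177 and 173 CPM in Ctrl and at 399, 358 and 379 CPM in IRF3-2D. It was 2.05-fold higher, again with wide separation (means 185 ± 17.4 and 379 ± 20.8 CPM, SD, n = 3; log2 fold change 1.04, SE 0.10, adjusted p = 0.000572). Summed over the 7 genes, cathepsin levels were 2235 to 2711 CPM in Ctrl and 3594 to 3827 CPM in IRF3-2D, a sum in which Ctsl is the largest part.

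Ctss, a cathepsin of antigen-presenting cells, stood at 56.2, 41.0 and 38.3 CPM in Ctrl and at 76.2, 99.9 and 46.6 CPM in IRF3-2D. IRF3-2D replicate 3 lay among the Ctrl samples, and the gene was not called (log2 fold change 0.72, SE 0.28, adjusted p = 0.104). It was called with DESeq2 (0.69, adjusted p = 0.0428) and by edgeR without IRF3-2D replicate 3 (0.95, adjusted p = 0.023). Ctsb had means of 583 ± 74.7 in Ctrl and 680 ± 39.1 CPM in IRF3-2D, and Ctsd, the main aspartic protease, 405 ± 15.7 and 431 ± 26.1 (± SD, n = 3). Neither was called with TMM scaling, though both were called higher with library totals (log2 fold change 0.67 and 0.55). Ctsa, which protects other lysosomal enzymes, was not called, at 142 ± 12.5 and 140 ± 17.4 CPM (± SD, n = 3). Ctsd shares 33.2% of its words with other genes, so its value is uncertain. Ctsc, which activates serine proteases of immune cells, was at 7.82 to 12.6 CPM in Ctrl and 3.28 to 9.96 in IRF3-2D.

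Among the other hydrolases, Gaa (chromosome 11, 119267887 to 119285454, plus strand), the acid alpha-glucosidase that breaks down glycogen in the lysosome, was called lower. It stood at 72.1, 61.3 and 80.0 CPM in Ctrl and at 44.2, 43.4 and 43.5 CPM in IRF3-2D. The IRF3-2D samples were nearly equal and all below Ctrl, 1.63-fold lower (means 71.1 ± 9.39 and 43.7 ± 0.436 CPM, SD, n = 3; log2 fold change -0.70, SE 0.11, adjusted p = 0.0036), and with library totals the log2 fold change was -0.25 and not called. Lipa, the lysosomal acid lipase that acts on cholesteryl esters and triglycerides, ranged from 24.7 to 45.3 CPM in Ctrl and from 19.3 to 34.6 in IRF3-2D, with overlap (log2 fold change -0.41, adjusted p = 0.319). Hexa, a subunit of beta-hexosaminidase, had 53.0 ± 6.39 and 50.04 ± 3.56 CPM (± SD, n = 3).

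Antisense or opposite-strand genes overlap some of these loci in GENCODE M21. Gm47123 covers 26.8% of the exon bases of Ctsl and 1700101I11Rik 28.3% of those of Gabarapl1. The library kit is described as strand-specific, but the strand setting of the counting is not given in the sources used here, so reads of these pairs may not be separated. Ctsl shares 7.68% of its words with other genes, Gabarapl1, Ctsz and Optn none.

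Cathepsins S, C and Z are abundant in macrophages, and some markers of these cells were higher in the same samples. Of the genes of these cathepsins only Ctsz was called by edgeR with TMM scaling, and Ctsc had a negative log2 fold change (-0.39). Of 17 Kupffer cell and macrophage markers 15 were tested. Of these, 6 were called higher and none lower, against 13.2% and 13.1% of all tested genes. The 17 summed to 600 to 725 CPM in Ctrl and 1017 to 1393 CPM in IRF3-2D, where Mpeg1 was the largest part of the sum. Much of the gap between the sums was that of Mpeg1 alone, at 163, 110 and 103 CPM in Ctrl and 561, 554 and 439 CPM in IRF3-2D. Mpeg1, which encodes a pore-forming protein of phagocytes, was 4.14-fold higher (means 125 CPM in Ctrl and 518 CPM in IRF3-2D). C1qb, a complement gene of Kupffer cells, was 1.62-fold higher. The calls of both held in every alternative. Cybb (1.82-fold), Aif1 (1.91-fold), Cd5l (1.56-fold) and C1qa (1.39-fold) were called too, and each of these calls was lost without Ctrl replicate 2, Ctrl replicate 3, IRF3-2D replicate 1 or IRF3-2D replicate 2. Those of Cd5l and Aif1 were also lost without Ctrl replicate 1. Their log2 fold changes were 0.72 to 0.86 for Cybb, 0.75 to 1.03 for Aif1, 0.54 to 0.68 for Cd5l and 0.38 to 0.47 for C1qa where leaving out a sample ended the call. The call of C1qa was also lost with RLE or upper-quartile scaling, and that of Aif1 without a filter on low counts.

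The other 9 tested macrophage markers were not called. Log2 fold changes were positive for Clec4f (0.36), Vsig4 (0.25), Marco (0.79), Timd4 (0.55), C1qc (0.39) and Tyrobp (0.51). Lyz2 was nearly level (0.03), and Csf1r (-0.12) and Adgre1 (-0.56) had negative values. Counts of Csf1r were 10, 107 and 234 in Ctrl and 388, 10 and 0 in IRF3-2D (SE 1.59), too scattered to give a direction. Adgre1, which encodes F4/80, stood at 0.590 to 1.09 CPM, and Cd68 and Fcer1g were listed at or near 0 in all samples. In IRF3-2D replicate 3 the level was the lowest of its group for each of the 6 called markers, as it was for Ctss, but not for Ctsl or Ctsz. The same held for the 5 endothelial markers called lower (Kdr, Ehd3, Oit3, Ptprb and Tie1), so this order was not particular to macrophage markers. Of 8 monocyte and dendritic cell markers 6 were tested and 1, Ly6c2, was called (8.21-fold higher; other genes hold 23.7% of its words). They summed to 4.54 to 8.25 CPM in Ctrl and 6.75 to 30.6 in IRF3-2D. The Ly6c2 call was lost without IRF3-2D replicate 2 (log2 fold change 2.59), with limma-voom (2.86) and with the replicate number as a block (2.88). Its Ctrl level rests on 8, 3 and 9 counts. The part of other cell types in the levels of Ctsl and Ctsz was not tested.

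**Figure D3:**
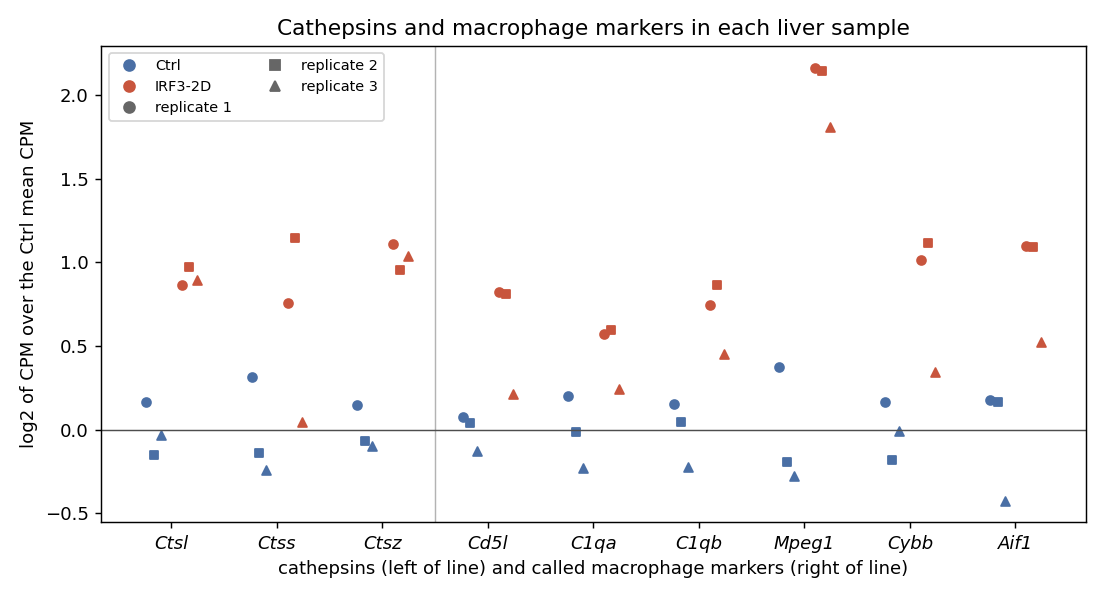
Log2 of the CPM in each sample over the Ctrl mean, for 3 cathepsin genes and the 6 macrophage markers called higher, with Ctrl in blue, IRF3-2D in red and a symbol for each replicate. IRF3-2D replicate 3 (red triangle) is lowest of its group for Ctss and all 6 markers, while the IRF3-2D samples of Ctsl and Ctsz lie close together.

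A wider list of 159 autophagy and lysosome genes outside the set gave the surroundings of these results. Of these, 152 were in the table and 132 tested, 19 called higher (14.4%, against 13.2% of all tested genes) and 24 lower (18.2%, against 13.1%), with a median log2 fold change of 0.02. Without IRF3-2D replicate 1, 9 were higher and 15 lower. Leaving out IRF3-2D replicate 2 gave 10 and 16, Ctrl replicate 3 gave 10 and 16, and Ctrl replicate 2 gave 11 and 18. With library totals 68 were higher and 9 lower.

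Genes of the early steps were called in both directions, beside 13.2% of all tested genes called higher and 13.1% lower. Ulk2, a kinase related to ULK1, was 2.13-fold lower (adjusted p = 0.00128), and Vmp1, a scramblase of autophagosome formation, 1.71-fold higher (adjusted p = 0.00152), the only calls among 11 tested genes of initiation. Atg16l2, a relative of Atg16l1, had 20.6, 21.03 and 17.7 CPM in Ctrl and 70.1, 69.2 and 79.6 CPM in IRF3-2D, and was 3.69-fold higher (adjusted p = 5.91e-05). Among 7 conjugation genes the only other call was Tecpr1, 1.62-fold lower. Its call was lost without the first or the second sample of either group (log2 fold change -0.74 to -0.53). It was also lost with the replicate number as a block (-0.69) and with library totals (-0.25).

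Genes of fusion between autophagosome and lysosome were called higher in 3 of 10 cases and lower in 1. Of all tested genes 13.2% were higher and 13.1% lower. Rab7, the GTPase of late endosomes and lysosomes, was 1.62-fold higher (adjusted p = 0.00108), although 16.3% of its words are shared with other genes. The calls of Plekhm1, a RAB7 effector (1.31-fold higher), and Vps18, a subunit of the tethering complex HOPS (1.26-fold higher), did not hold throughout. That of Plekhm1 was lost without Ctrl replicate 2 or 3 or without IRF3-2D replicate 1 or 3 (log2 fold change 0.33 to 0.37), and that of Vps18 without any 1 of the 6 samples (0.30 to 0.36). DESeq2 called neither gene. The call of Vps18 was lost with limma-voom, with the replicate number as a block and without a filter on low counts too. Among 11 genes of selective autophagy 1 was higher and 3 lower, to be set beside the same shares of all genes. The kinase Tbk1, which phosphorylates both optineurin and IRF3, was 1.53-fold higher (adjusted p = 0.00333). The mitophagy receptor Bnip3 was 1.95-fold lower (adjusted p = 0.000824, with 20.3% of its words shared) and the receptor for endoplasmic reticulum Retreg1 1.44-fold lower (adjusted p = 0.00545, not called with library totals at a log2 fold change of -0.07).

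Among nutrient sensing genes at the lysosome, Deptor, an inhibitory partner of the kinase mTOR, stood at 437, 566 and 507 CPM in Ctrl and at 102, 99.2 and 106 CPM in IRF3-2D. It was 4.91-fold lower (log2 fold change -2.29, adjusted p = 4.41e-05). Rraga, a GTPase that brings mTOR to the lysosome, was 1.41-fold higher (adjusted p = 0.00557), and Fnip2, a partner of folliculin, 1.51-fold lower (adjusted p = 0.0126, lost without IRF3-2D replicate 2 at a log2 fold change of -0.54 and with library totals at -0.14). In all, 3 of 21 tested genes of this list were called higher and 4 lower, against 13.2% and 13.1% of all tested genes.

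Subunits of the V-ATPase outside the set included large changes in both directions. Tcirg1, which encodes the a3 subunit of the membrane sector, stood at 2.29, 2.27 and 4.14 CPM in Ctrl and at 31.2, 25.5 and 36.8 CPM in IRF3-2D, a 10.7-fold higher level (log2 fold change 3.42, adjusted p = 0.000269). Atp6v0d2, the alternative form of the subunit encoded by Atp6v0d1, stood at 16.6, 4.21 and 8.21 CPM in Ctrl and at 0.582, 0.745 and 0.393 CPM in IRF3-2D, 16.6-fold lower (log2 fold change -4.06, adjusted p = 0.00307). Both calls held in all 14 alternatives, and without Ctrl replicate 1, its highest sample, Atp6v0d2 was 10.7-fold lower (log2 fold change -3.42). Its IRF3-2D levels rest on 9, 11 and 6 counts, near the limit of detection, so the size of its fold is uncertain. Atp6v1b2, a subunit of the catalytic sector, was 1.39-fold higher (adjusted p = 0.00333). Of 13 tested subunit genes of this list 3 were called higher and 1 lower, against 13.2% and 13.1% of all tested genes.

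Lysosomal hydrolases and their activators outside the set were called lower in 8 of 27 cases and higher in 3, where 13.1% of all tested genes were lower and 13.2% higher. Arsa, the arylsulfatase that degrades sulfatide, was 3.68-fold lower (adjusted p = 0.000469), and Gm2a, the activator of GM2 ganglioside breakdown, 2.01-fold lower (adjusted p = 0.00131). Both calls held in all 14 alternatives. Of 8 further proteases, Ctso was 1.31-fold higher and Scpep1 1.26-fold lower, to be set beside the same shares of all genes. Neither call held throughout. That of Ctso was lost without Ctrl replicate 2, IRF3-2D replicate 2 or IRF3-2D replicate 3 (log2 fold change 0.32 to 0.40). That of Scpep1 was lost without any 1 sample other than Ctrl replicate 1 (-0.38 to -0.25), and with library totals its log2 fold change was 0.12. It was also lost without a filter on low counts (-0.32) and with the replicate number as a block (-0.33).

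Among 17 tested genes of the lysosomal membrane outside the set 3 were higher and 2 lower, against 13.2% and 13.1% of all tested genes. The cation channel Tpcn1 was 1.96-fold lower (adjusted p = 0.00118). Npc2, which carries cholesterol out of the lysosome, was 1.53-fold higher and Scarb2, the receptor that delivers glucocerebrosidase, 1.36-fold lower. Both calls were lost without Ctrl replicate 3 or IRF3-2D replicate 1 or 2 (0.56 to 0.58 and -0.45 to -0.35), and with library totals the log2 fold change of Scarb2 was 0.014. Sort1, a sorting receptor for lysosomal proteins, was 2.18-fold lower (adjusted p = 0.00131), and Cst3, an inhibitor of cysteine cathepsins, 1.38-fold lower (adjusted p = 0.00708, not called with library totals at -0.02). These were the 2 calls among 7 tested genes of sorting and inhibition, to be set beside the same shares of all genes.

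**Figure D4:**
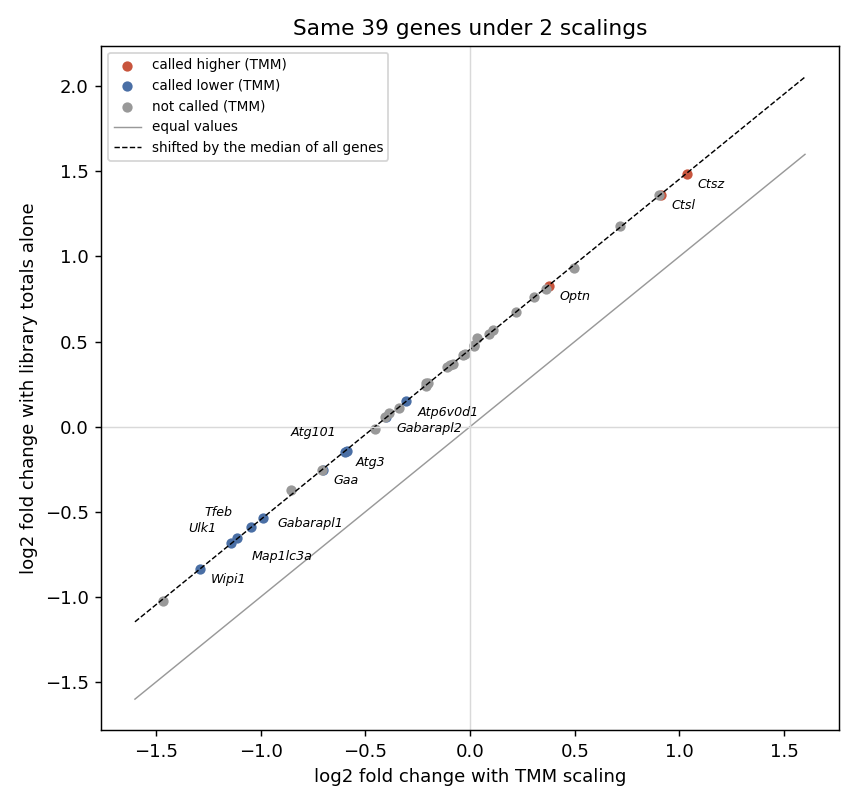
Log2 fold change of the 39 tested genes with TMM scaling (x axis) and with library totals alone (y axis), coloured by their call with TMM. The change of scaling moves all genes by about the same amount, so the points lie along the dashed line, which is shifted by the difference in the median of all genes, and 13 of the 39 cross 0, Gabarapl2 and Atp6v0d1 among the called ones.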

How the data were processed

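RNA of 6 liver samples (3 Ctrl, 3 IRF3-2D) was measured. The deposited values are estimated counts per gene, all whole numbers, 1 column per library; the submitters' processing notes name Salmon 1.2.1, GRCm38 and mm10 without a role, and the sources used here do not give the annotation, strand setting or filters. Columns were matched to samples by library name. Of 20894 identifiers 20817 have a symbol in GENCODE M21. Genes passing filterByExpr were tested with edgeR 4.0.16 (R 4.3.3): TMM scaling, quasi-likelihood F-test, group as the only term, Benjamini-Hochberg adjustment over all tested genes, threshold 0.05. The same fit was run on simulated counts with as many genes raised as lowered, which cannot test how the calls depend on scaling. Standard errors come from the fold change and its F statistic. Shared 31-base words come from GENCODE M21 transcripts. Alternatives were DESeq2 1.42.0, limma-voom (limma 3.58.1), other scalings and filters, the replicate block and leaving out each sample.

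The genes and lists were chosen with earlier results of these data known. Per-sample values are given for called genes of the set; from each wider list the 3 called genes with the smallest adjusted p are named (1 of these genes is not reported here), and every called macrophage or monocyte marker may be. Tfe3, Atg7, Lamp1, Lamp2, Ctss, Map1lc3b, Becn1 and the macrophage markers without a call were given in more detail after their values were seen. Of tested stellate markers 1 of 6 was called lower, and of tested endothelial markers 5 of 8, against 13.1% of all tested genes. None was called among 4 tested lymphocyte and neutrophil markers or among 4 tested cholangiocyte markers. These lists had no gene called higher.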

Additional observations from a re-analysis of the deposited data

How the results depend on the processing

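Among 14 alternatives to the analysis of 72 genes followed, 100 values were no longer called with the same sign, 11 became called with the same sign, and 9 changed sign where the gene was called in either analysis. A further 26 values changed sign with no call in either, 6 with library totals, 14 without a single sample and 6 in other settings. The 9 arose with library totals alone, where the log2 fold change was 0.36 for Atg14, 0.35 for Atg5, 0.42 for Nbr1, 0.43 for Ctsa, 0.37 for Hexa, 0.056 for Gabarapl2, 0.15 for Atp6v0d1, 0.014 for Scarb2 and 0.12 for Scpep1. With library totals 5071 genes were called, 4500 higher and 571 lower, against 2844, 1426 and 1418 with TMM. In the set 15 were then higher and 3 lower, and in the wider list 68 and 9. Leaving out 1 sample at a time gave 1771 to 2675 called genes (851 to 1312 higher, 920 to 1363 lower), 2 to 4 higher and 5 to 8 lower in the set, and 9 to 17 higher and 15 to 22 lower in the wider list. Fewer samples were then fitted. All genes called numbered 1821 without IRF3-2D replicate 1 and 1771 without IRF3-2D replicate 2. The labels number replicates 1 to 3 in both groups and do not say what the number marks. Deviations of same-numbered samples from their group means had correlations of 0.096, -0.0339 and 0.0449. Those of differently numbered samples ran from -0.105 to 0.0636. With 3 samples a group, these values cannot decide whether same-numbered samples share a day or litter. With that number as a block, 2166 genes were called, 3 higher and 6 lower in the set, and 13 and 19 in the wider list.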

Other observations

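In some genes of the set a single sample stood apart from the others of its group. Becn1 had 912 counts in IRF3-2D replicate 3 against 318 and 184 in the other samples of that group, and 43.9% of its exon bases overlap the opposite-strand gene Cntd1. Map1lc3b had 399 counts in Ctrl replicate 1 and 89 and 108 in the other Ctrl samples. Atp6v1h, a regulatory V-ATPase subunit, had 57 counts in Ctrl replicate 1 and 237 and 262 in the others, so that replicate was high for Map1lc3b and low for Atp6v1h. Wipi2 had 18 counts in Ctrl replicate 2 and 80 and 86 in the other Ctrl samples.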
